A study of Drosophila melanogaster with 312 samples.

Results

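CG33958 (FBgn0053958) was followed across 6 laboratory populations of *Drosophila melanogaster* over 13 generations of selection on night sleep. It is 1 of 17478 genes with raw counts, and was picked because its expression had the largest difference between the slopes of short and long sleepers in females. The female slopes are therefore given as a description, without a test, and tests are given for males and for measures the choice did not use. Males and females came from the same populations, so the sexes do not have separate selection histories.

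The flies descended from an outbred population made by crossing inbred lines of the *Drosophila* Genetic Reference Panel. In each generation, virgin flies were scored for night sleep, and parents were the flies sleeping least in the short populations S1 and S2, the flies sleeping most in the long populations L1 and L2, and flies taken regardless of sleep in the controls C1 and C2. Numbers 1 and 2 denote Replicate 1 and Replicate 2 of a scheme. RNA was taken from pools of 10 whole flies, 2 pools for each population, sex and generation, at generation 0 and at generations 2 to 13; generation 1 was not sequenced. This gave 312 libraries, 156 for each sex and 26 for each population and sex. With 2 populations for each scheme, selection cannot be told apart from chance changes that a small population keeps, and pools of a population share its history.

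Guanylyl cyclases make the second messenger cyclic GMP from GTP. Cyclic GMP acts through cGMP-dependent kinases and cyclic nucleotide gated channels and is broken down by phosphodiesterases; in flies the kinase encoded by *for* is known for its part in feeding behavior. RefSeq lists CG33958 with the synonym GYC, which it also gives to several guanylyl cyclase genes. The function of CG33958 itself was not measured here.

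CG33958 lies on the minus strand of chromosome arm 2R at 18184382 to 18192851 (BDGP6.54, a later annotation of the genome release the authors used). Its 1 annotated transcript has 13 exons, with an exonic length of 2676 bases in a span of 8470 bases. 2 genes on the opposite strand, CG14499 and CG14500, lie inside its intron 3. Libraries were made with a stranded kit, but the strand setting of the counting is not given in the sources used here, so reads of these genes and of unspliced CG33958 RNA may not be told apart.

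Library totals ran from 31539064 to 109389826 counts, with a median of 41317004. The sexes were checked with markers: yolk protein, oocyte and eggshell genes for females, and sperm and seminal protein genes for males. In 3 male libraries the summed female markers stood far above the male median of 1352 normalized counts, namely L1 generation 8 pool 2 at 467090, S2 generation 0 pool 2 at 212741 and S2 generation 2 pool 1 at 11470. CG33958 there was 1815, 681 and 386, against 1646, 1004 and 263 in the other pool of each pair. In females, C2 generation 2 pool 1 had male markers at 2767 against a median of 30.4, with CG33958 at 269 against 262 in its partner. A normalized count is the read count divided by the size factor of its library, and all levels below are in this unit.

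At generation 0 CG33958 was expressed in every population. The 12 female libraries had a lowest value of 91.1, a median of 577 and a highest of 1376, with a mean of 690 ± 407 (SD, n = 12). The 12 male libraries ran from 98.1 through a median of 613 to 1004, with a mean of 589 ± 233 (SD, n = 12). The ranges of the sexes overlapped almost fully. The difference between females and males was 0.16 ± 0.32 (SE) on the log2 scale (adjusted p = 0.613, edgeR quasi-likelihood test), in a comparison that called 91.6% of the genes tested at an adjusted p under 0.001. Its interval is wide, and it does not show that the sexes had one level. The 12 female libraries also entered the slopes by which the gene was chosen, so this comparison is not independent of the choice.

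The low end of the later values belongs to S1 females. Their 2 pools had 1302 and 876 normalized counts at generation 0, 314 and 382 at generation 2, and 9.54 and 211 at generation 3. From generation 4 onward all 20 female libraries of S1 lay between 2.24 and 18.7, with a median of 9.22. These levels rest on 2 to 27 raw reads in a library, so counting error is large beside them and differences among them cannot be read. No female library of L2, C1 or C2 was under 20, and 1 of L1 was.

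S1 males took the same course to a higher floor. They had 424 and 410 at generation 0, 283 and 119 at generation 2, and 111 and 41.3 at generation 3. From generation 4 the 20 male libraries of S1 lay between 24.1 and 57.8, with a median of 38.0, on 24 to 93 raw reads. Every one of them was above every S1 female library of the same generations. In the last generations the mean of S1 males was 3.62 times that of S1 females. Male means were also higher in S2 (1.16 times) and C2 (1.09 times), and lower in both long populations and C1. Such ratios also hold for other genes. Over all libraries the neuron marker elav had medians of 1502 in males and 377 in females, and the muscle marker Mhc 47914 and 11352. Of the tissue markers outside the sex lists, all but Fbp1 (4.32 and 5.81) had higher medians in males. The part of body composition in the S1 ratio was not tested.

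S2, the other short population, had lower levels than the long populations but did not settle. Its female libraries from generation 4 ran from 2.96 to 941, with a median of 137. At generation 6 the 2 pools had 152 and 941, at generation 10 they had 10.1 and 8.11, and at generation 12 they had 424 and 135. 6 of its 26 female libraries were under 20, where 21 of the 26 of S1 were. S2 males from generation 4 ran from 32.2 to 520, with a median of 127, and 8 of 26 were under 60, against 21 of 26 in S1.

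L1 started low and ended high. Its pools at generation 2 had 72.4 and 8.29 in females and 348 and 118 in males. From generation 4 its 20 female libraries lay between 1165 and 2191, with a median of 1627, and its 20 male libraries between 733 and 1815, with a median of 1162. L2 showed no such dip in females, with 1328 and 616 at generation 2, and from generation 4 ran from 1277 to 3096 in females and from 797 to 2136 in males.

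The controls did not stay together. C1 had 351 to 1035 in its 8 female libraries of generations 0 to 4 (median 660) and 1114 to 1912 in the 8 of generations 10 to 13 (median 1532). Its male libraries had 328 to 629 (median 551) in the early period and 802 to 1159 (median 1071) in the late one. Early and late ranges of C1 did not overlap in either sex. In C2 they overlapped, with medians of 338 and 427 in females and of 259 and 423 in males.

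**Figure D1:**
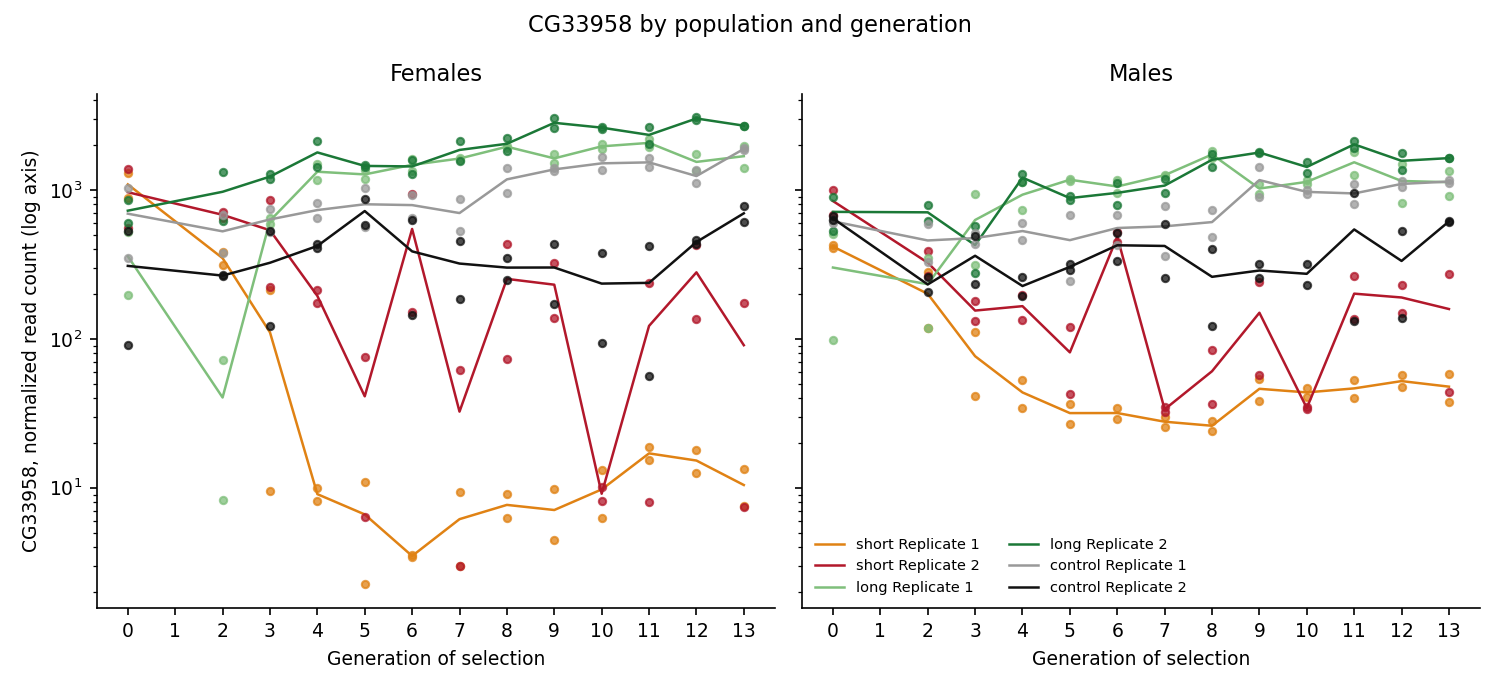
Normalized read count of CG33958 (log axis) by generation of selection, females at left and males at right. Points are pools of 10 flies and lines join the means of 2 pools; S1 lies at 2.24 to 18.7 in females and 24.1 to 57.8 in males from generation 4, while L1, L2 and C1 end highest.

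In the late period, generations 10 to 13, the order of the means was L2, L1, C1, C2, S2 and S1 in both sexes. In females the means were 2672 ± 311, 1815 ± 304, 1542 ± 273, 404 ± 242, 125 ± 150 and 13.1 ± 4.4 (SD, n = 8 each). In males they were 1664 ± 278, 1236 ± 319, 1038 ± 121, 441 ± 287, 146 ± 102 and 47.5 ± 7.77 (SD, n = 8 each). Neighbours in this order overlapped in their ranges, except C1 and C2 in females, where the lowest C1 library had 1114 and the highest C2 library 785. The order of neighbours is therefore mostly within the spread of pools, and the separation lies between the ends.

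Between short and long sleepers the late ranges came apart, while the controls overlapped both. The 16 late male libraries of the short sleepers ran from 34.0 through a median of 50.2 to 273, those of the long sleepers from 815 through 1419 to 2136, and those of the controls from 132 through 874 to 1159. No short library reached the lowest long library, which held for 0.181% of the genes tested in males. In females, whose slopes chose the gene, the short range was 6.26 to 424 (median 13.2) and the long range 1348 to 3096 (median 2119). The female control range was 56.3 to 1912 (median 950). A gap between short and long held for 0.129% of the genes tested in females. The choice of the gene used these libraries, so nothing is read from that share. By generation, all 4 short libraries lay under all 4 long libraries in every generation from generation 3 in males and from generation 4 in females. The share of all genes with such a run was not computed, so nothing is read from it in either sex.

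**Figure D2:**
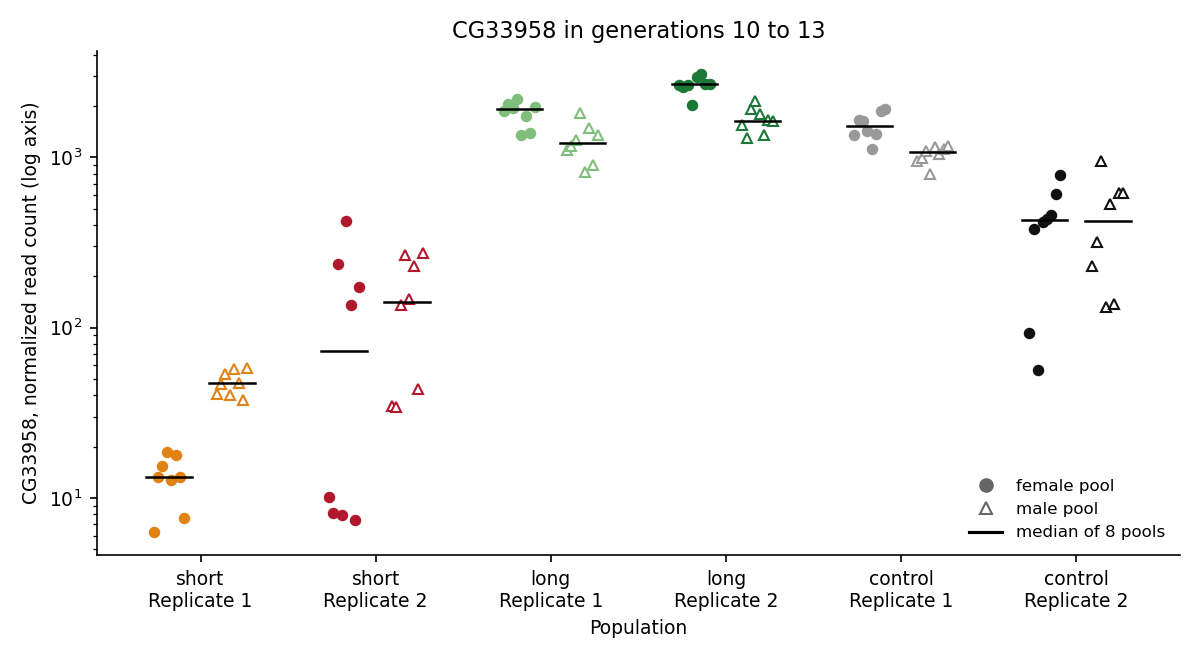
Normalized read count of CG33958 (log axis) in generations 10 to 13 for the 6 populations, with circles for female pools, triangles for male pools and a bar for the median of 8. All male short pools, at most 273, lie under all male long pools, at least 815, and S1 is the population in which males lie far above females.

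The late male levels were compared in 1 fit with population as a factor. The 16 libraries of a scheme came from 2 populations, and the p-values measure the spread of libraries within populations. No test with populations as replicates was made of these late levels. Short sleepers were 17.2-fold lower than long sleepers, a log2 difference of -4.10 ± 0.25 (SE) with an adjusted p of 1.10e-17 (edgeR quasi-likelihood test, 16 libraries against 16). This contrast called 7.29% of the 13825 genes tested, 3.56% as lower in short sleepers, and CG33958 had the sixth most negative difference. Against the controls, short sleepers were 8.12-fold lower (log2 -3.02 ± 0.24, adjusted p = 2.51e-13 by edgeR), in a contrast that called 4.43% of genes. Long sleepers were 2.12-fold above the controls (log2 1.08 ± 0.22, adjusted p = 0.000379 by edgeR), with 2.94% of genes called. That last call was lost in 11 of 19 alternatives, among them every fit that left out 1 generation or 1 pool number and those without C2, L2 or S1. Without C2 the difference was 0.47 with an adjusted p of 0.188 (edgeR).

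Some tissue markers differed in level between schemes in the late period. In late males the summed hemocyte markers Hml and NimC1 had a median of 1405 in short sleepers (857 to 2314), 2294 in long sleepers (1313 to 4169) and 1770 in controls. The 3 fat body markers had medians of 36454 (25866 to 77360), 53998 (33114 to 121807) and 51137. The ranges overlapped for both lists. In late females the hemocyte medians were 474 in short sleepers, 632 in long sleepers and 591 in controls. The fat body medians were 18618, 17376 and 20864. Neuron, photoreceptor and muscle lists had medians of 34168 and 31724, 366457 and 358675, and 41294 and 39584 in short and long males. The gut markers Amy-p and Amy-d had medians of 100223 in short, 117103 in long and 74502 in control males. In late females the 3 muscle markers had medians of 11961 in short (4787 to 17699) and 7379 in long sleepers (3452 to 12459). The control median was 9145. The yolk, oocyte and eggshell markers had 358214 (131189 to 597875) and 237785 (161940 to 512623), and 411039 in controls, above both. The sums are unscaled, so the muscle sum is mostly Mhc, with an overall female median of 11352 against 117 for Act88F and 26.5 for fln. The part of these tissues in the result was not tested, and in whole flies fewer cells of a type and less RNA per cell cannot be told apart.

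The change over all generations was fitted as a slope on the log2 scale for each population. In females the slopes per generation were -0.56 ± 0.056 in S1, -0.21 ± 0.051 in S2, 0.20 ± 0.064 in L1, 0.15 ± 0.057 in L2, 0.13 ± 0.053 in C1 and 0.027 ± 0.054 in C2 (SE, 26 libraries each). Averaged over replicates, the short minus long difference of female slopes was -0.56 ± 0.058, ranked 1 among the 199 genes that were called on the 4 added slopes and had replicate populations of one sign; the next gene, CR44906, had -0.41 ± 0.068. The gene was chosen by these values. Among all 10107 genes tested in females, 0.989% were called on this difference and 9.9% on the added slopes together, and nothing is read from either here.

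Males were the sex that did not choose the gene. Their slopes were -0.22 ± 0.037 in S1, -0.15 ± 0.035 in S2, 0.15 ± 0.046 in L1, 0.13 ± 0.041 in L2, 0.11 ± 0.038 in C1 and 0.012 ± 0.036 in C2. The sign of the slope was the same as in females in all 6 populations. The short minus long difference was -0.32 ± 0.040 per generation (adjusted p = 2.35e-10, edgeR), against a background of 1.84% of the 13825 genes called and 0.774% called as lower in short sleepers. It ranked 40 of 272 male genes with the same sort of call, so CG33958 was not at the top in males. Vml, an eggshell gene among the female markers, ranked above it at -0.73 ± 0.17. The rank was not recomputed without the male libraries that carried female markers. The 4 added slopes tested together had an adjusted p of 2.98e-10, where 5.87% of genes were called.

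In their male slopes, the short sleepers passed the threshold against the controls and the long sleepers did not. The mean short minus mean control slope was -0.24 ± 0.037 (adjusted p = 4.01e-07, edgeR), and the mean long minus mean control slope was 0.079 ± 0.040 (adjusted p = 0.481, edgeR); these contrasts called 0.839% and 0.658% of genes. The replicate populations were not shown to differ in males, with -0.071 ± 0.052 for S1 minus S2 (adjusted p = 0.527), 0.017 ± 0.060 for L1 minus L2 (adjusted p = 0.941) and 0.093 ± 0.052 for C1 minus C2 (adjusted p = 1.00), all by edgeR. The same contrasts called 0.948%, 0.781% and 0.0434% of genes. In females S1 minus S2 was -0.35 ± 0.078, given without a test. Whether the sexes differ in slope was not tested, because the female slopes chose the gene.

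**Figure D3:**
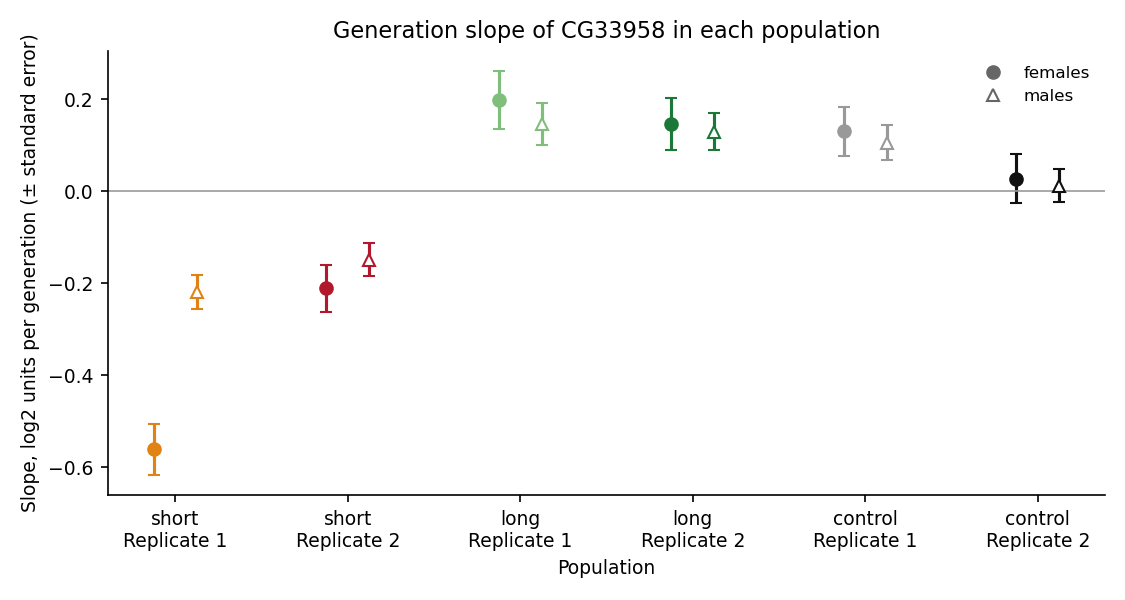
Slope of CG33958 in log2 units per generation for each population, circles for females and triangles for males, with bars of 1 standard error. Both short populations lie below 0 and both long populations above it in each sex, and S1 females, at -0.56, lie apart from all other points.

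Taking the population rather than the library as the replicate, the male difference was -0.32 ± 0.039 over 6 slopes (limma moderated test, unadjusted p = 0.000437, adjusted p = 0.284). No gene was called in that test, and 1050 of 13825 had an unadjusted p under 0.05. Omitting pool 1 of every pair ended the library-level call, at -0.26 with an adjusted p of 0.00191. Without the 3 male libraries that carried female markers, the difference was -0.31 (adjusted p = 1.13e-09, edgeR).

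In the main fit, the selected male populations departed from straight lines relative to the generation effects they shared with the controls. Their quadratic and cubic terms, tested together in a fit with generation as a factor, gave an adjusted p of 0.000422 (edgeR), where 0.673% of genes were called. S1 males went from 424 and 410 at generation 0 to 283 and 119 at generation 2, and from generation 4 to 13 stayed between 24.1 and 57.8. This call ended in 12 of 22 alternatives, with adjusted p-values up to 0.185.

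The 2 pools of one population, sex and generation often differed. Over the 78 pairs of each sex, the fold between pools exceeded 2 in 26 female and 17 male pairs, with median folds of 1.41 and 1.36. The standard deviation between pools was 1.05 log2 units in females, where the median gene had 0.14, and 0.63 in males, where the median gene had 0.22. These values stood at percentile 98.5 of the 10107 genes tested in females and percentile 96.1 of the 13825 tested in males, and at percentile 98.8 among genes of like level in both sexes.

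Pool spread was uneven among populations. In S2 females 10 of 13 generations had pools more than 2-fold apart, the widest at generation 11 with 236 and 7.96, a 29.7-fold gap. The low pool of that pair rests on 10 raw reads, and other low S2 female pools on 3 to 10, so the size of these gaps carries a large counting error. C2 followed with 7 of 13 generations in females, the widest at generation 11 with 56.3 and 419, and with 5 of 13 in males, the widest again at generation 11 with 953 and 132. In L2 and C1 only 1 of 13 female generations passed 2-fold. In the late period the median fold between pools was 13.3 in S2 females and 2.66 in C2 females, against 1.04 in L2, 1.19 in C1 and 1.21 in L1. S1 pools differed by 1.58-fold at the late median, at the lowest counts. Single wide gaps also occurred early in S1 females, with 22.2-fold at generation 3, and in L1 females, with 8.73-fold at generation 2.

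**Figure D4:**
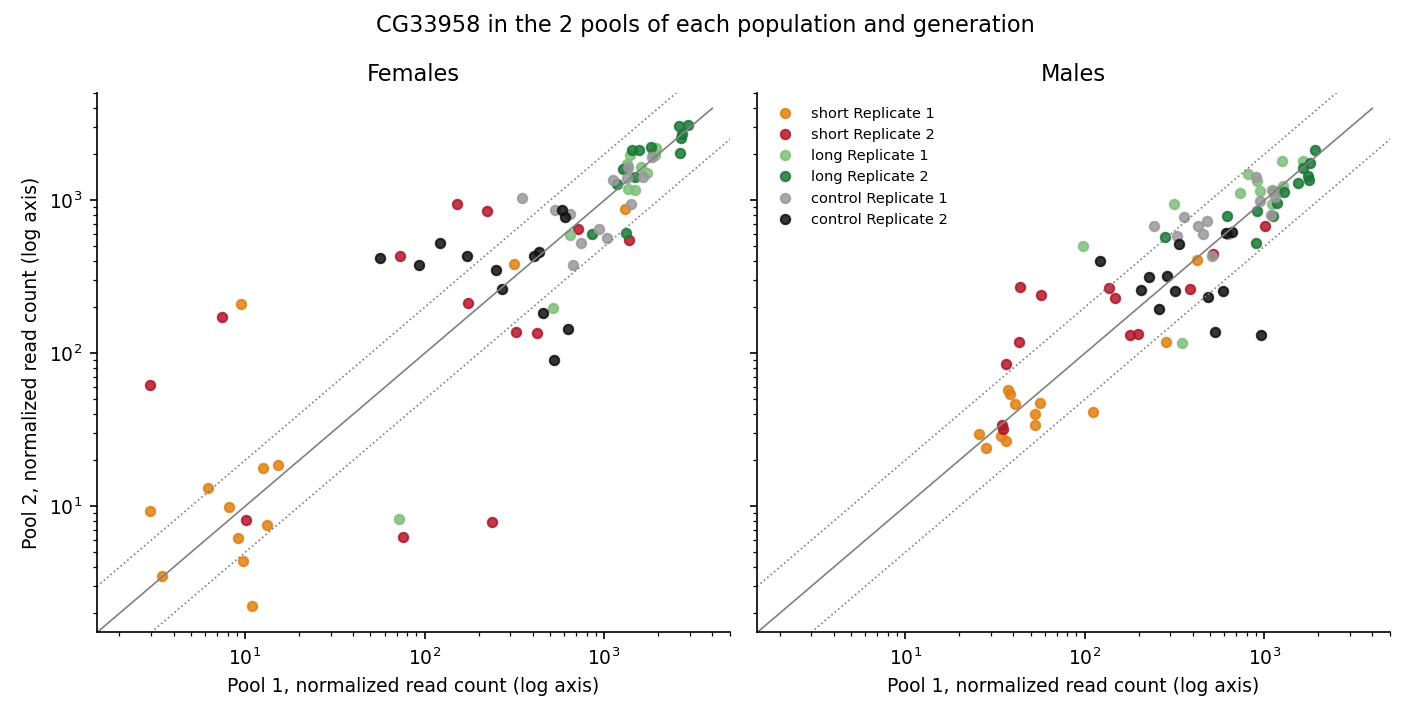
Normalized read count of CG33958 in pool 1 against pool 2 of each population and generation (log axes), females at left and males at right; the solid line marks equal pools and the dotted lines a 2-fold difference. Of the 78 pairs in each sex, 26 female and 17 male pairs lie outside the dotted lines, many of them from S2 and C2.

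The genes overlapping or next to CG33958 were compared in the same fits. By edgeR and by DESeq2, 0 of the 8 overlapping or neighbouring genes were called on the short minus long difference in males. With 1.84% of all genes called by edgeR, and 353 of 13825 by DESeq2, a count of 0 among 8 is near the background. By each tool 3 of the 8 had an unadjusted p under 0.05. The share of all genes under that value is not given, so this count is not read. CG5721, which lies 292 bases away, had a male difference of 0.0015 ± 0.0053 and late male means of 2187 in short and 2132 in long sleepers. nopo and CG5726, farther on the same side, had -0.039 ± 0.021 and -0.011 ± 0.018, and on the other side CG30114, CR45310 and fj had 0.060 ± 0.020, -0.061 ± 0.021 and -0.019 ± 0.020.

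The 2 genes inside the intron were also compared. CG14500 had a male difference of -0.051 ± 0.036 (adjusted p = 0.461, edgeR). CG14499 had -0.24 ± 0.10 (adjusted p = 0.169, edgeR), the nearest in size to CG33958 but with a far wider standard error. Its late levels were ordered otherwise than those of CG33958: the medians of CG14499 were 685 in S1 males, 123 in S2, 1823 in L1 and 262 in L2, and in S1 females it had a median of 1210 while CG33958 had 13.2. In females CG14499 had a difference of -0.27 ± 0.086 (adjusted p = 0.0549, edgeR) and was the 1 of 5 neighbours tested that was called on the 4 added slopes together (adjusted p = 0.000687, edgeR), where 9.9% of genes were. Over the 78 means of population and generation the correlation of CG14499 with CG33958 was 0.10 in males and -0.021 in females. In males CR45310 had the highest correlation of the 8, at 0.57, with late means of 24.3 in short and 54.6 in long sleepers, and CG14500 had 0.40, with 620 and 1097. Both lie above the value of 0.35 under which 95% of the genes tested in males lay.

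The cyclic GMP pathway was taken as a list of 23 other genes, of which 17 passed the filter in females and 21 in males. In males 0 of 21 were called on the short minus long difference by edgeR or by DESeq2. Of all genes, 1.84% were called by edgeR and 353 of 13825 by DESeq2. By each tool 2 of the 21 had an unadjusted p under 0.05, a count that is not read because the share of all genes is not given. The median difference of the list was 0.0079 per generation beside 0.0016 for all genes, and its members ran from -0.018 to 0.066. The member with the largest male difference was Gyc88E, a soluble guanylyl cyclase, at 0.066 ± 0.016 (adjusted p = 0.00191), followed by CngA, a cyclic nucleotide gated channel, at 0.044 ± 0.012 (adjusted p = 0.00900). The kinase *for* had -0.0025 ± 0.011 and the phosphodiesterase Pde11 -0.0087 ± 0.010. In females 0 of 17 were called on the difference by edgeR, where 0.989% of all genes were. An unadjusted p under 0.05 was found for 2 of the 17, which is likewise not read. CG10738, a related cyclase, and Pkg21D, a cGMP-dependent kinase, were called on the 4 added slopes together. This was 2 of 17 where 9.9% of all genes were called, a share near the background. With a generation slope for each population number, CG10738 had an adjusted p of 0.000368 (edgeR) and Pkg21D one of 0.214, so that call was lost.

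Per kilobase of exon, CG33958 had a mean level of 320 normalized counts in females and 229 in males. Among the guanylyl cyclases this was above CG10738 (118 and 21.7) and CG31183 (67.1 and 199) in both sexes, while the soluble subunit Gycalpha99B had 117 in females and 663 in males. These are levels averaged over all populations, and CG33958 varied among them. In the late period its mean per kilobase was 4.89 in S1 and 998 in L2 females, where CG10738 had 112 and 275, and 17.7 in S1 and 622 in L2 males, where CG31183 had 246 and 197. In both pairs CG33958 was the lower gene in S1 and the higher in L2.

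**Figure D5:**
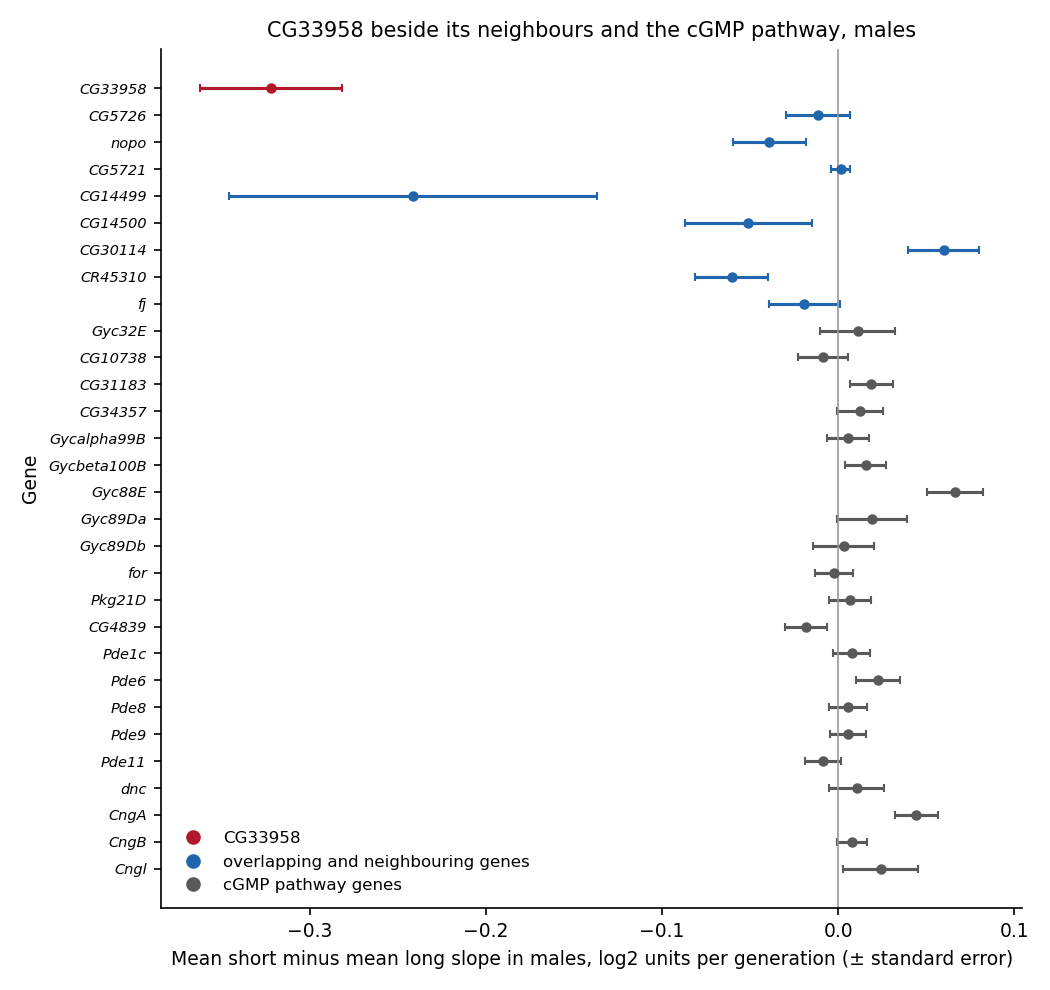
Mean short minus mean long slope in males, in log2 units per generation with bars of 1 standard error, for CG33958, the genes overlapping or next to it and the cyclic GMP pathway genes that were tested. CG33958 lies at -0.32; the pathway genes lie between -0.018 and 0.066, and CG14499, at -0.24, has the widest bar.

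The genes whose pattern was most like that of CG33958 were found by the Pearson correlation of log2 values over 78 means of population and generation in each sex, which share libraries, populations and a common course of generations. In females the highest were CG32409 (0.76), GstE10 (0.75), CG9503 (0.74), CG13562 (0.73) and CR42653 (0.72). In males they were CR45022 (0.86), CG13562 (0.83), CR44379 (0.82), CR44344 (0.81) and CG13163 (0.79). For comparison, 95% of the genes tested had a correlation under 0.30 in females and under 0.35 in males. CG13562 was the 1 gene on both lists.

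The lowest correlation in both sexes was that of DAT, the dopamine transporter, with -0.78 in females and -0.82 in males. In late males DAT had a median of 392 in short sleepers (129 to 1235), 150 in long sleepers (128 to 208) and 151 in controls (122 to 273), so the short range overlapped both others. In S1 males the DAT median was 569 and in S2 males 307, while in late females the short, long and control medians were 190, 36.1 and 43.8. The other genes at the low end were CG17681 (-0.70) and CG33003 (-0.70) in females, and CG31832 (-0.78) and GstE11 (-0.77) in males.

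Position was not used to find these genes. All 5 of the highest in males and 3 of the 5 in females lie on chromosome arm 2R, which holds 19.8% and 20.3% of the genes tested with a known position. CR45022 lies 110 kb from CG33958, GstE10 204 kb, GstE11 311 kb, CR44344 795 kb, CR44379 1372 kb and DAT 1619 kb. The others on this arm lie farther away, CG13562 at 5711 kb, CG13163 at 5862 kb and CR42653 at 16975 kb.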

How the data were processed

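CG33958 and the gene lists were chosen with earlier results of these data known. The authors aligned read pairs with STAR to a FlyBase release 6 annotation and counted uniquely mapped reads with HTSeq; base calling used CASAVA 1.8.2, per the labels. The deposited read counts are raw. The deposited normalized counts, a signal, are the authors' counts divided by 1 size factor per library (0.74 to 2.47); raw over normalized was constant within libraries (largest CV 2.3e-09). Normalized counts were computed for all genes from these factors.

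Genes entered tests with a normalized count over 50 in males or 100 in females in at least 1 library, a rounding of the cutoffs in the study's methods. The study fitted a hierarchical negative binomial model. Here edgeR 4.0.16 (R 4.3.3) quasi-likelihood tests were run on raw counts in each sex, with 6 population intercepts, a shared generation slope and added slopes for the 4 selected populations. Slopes of single populations come from a fit chosen after seeing the data, with 1 slope for each of the 6 populations. The fit of the listed genes in females with a generation slope for each population number was also added after seeing the data. Calls are at a Benjamini-Hochberg adjusted p under 0.001 over all genes tested; all tests are two-sided. limma 3.58.1 tested 6 population slopes of the log2 of the normalized count plus 1, and DESeq2 1.42.0 was an alternative. The edgeR and limma steps were run on simulated male counts in which the populations of a scheme did not differ. That run could not test how the p-values behave where replicate populations drift apart.

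Pools were separate libraries: over 156 pairs, chi-square over its degrees of freedom between the counts of both pools was 6.91 or more (median 29.8). The labels do not say more on how pools relate. By the study's methods, 4 pools of each sex were drawn at random from flies that had not become parents. Some of these were spares for use where needed. The p-values measure the spread between these libraries. In 35 libraries the pool numbers in the labels differ, and 29 carry a number of 3 or 4. Deviations of same-numbered populations correlated across genes at 0.22, 0.13 and 0.22 in females and at 0.42, -0.033 and 0.022 in males. The pairs were short with long, short with control and long with control. For pool numbers such correlations ran from -0.64 to 0.43 in females (median -0.019) and from -0.27 to 0.30 in males (median -0.0091). Only the male short with long value, 0.42, lay outside the range of its sex. The female values lay inside theirs, so they do not show that same-numbered populations were paired. Fits with a replicate block are given among the alternatives. The named genes are CG33958, overlapping genes and the 3 nearest measured genes on each side, the cyclic GMP list, and the 5 highest and 3 lowest correlations in each sex. No sequence is shown.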

Additional observations from a re-analysis of the deposited data

How the results depend on the processing

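Over all alternatives the male short minus long slope stayed between -0.40 and -0.22 per generation; with 1 pool number left out it was -0.40 and -0.26, the latter (adjusted p = 0.00191, edgeR) past no threshold. The male added slopes had adjusted p-values of 5.24e-06 and 0.00696 with 1 pool number left out, and kept their call otherwise. The female difference, described without a test, moved by more than the spread between replicate populations (0.18) only without S2, to -0.74; without S1 it shifted nearly as far the other way, to -0.38. Late short minus long and short minus control kept their calls in all 19 alternatives each, with -4.92 to -3.29 and -3.84 to -2.21. The male test over 6 populations was under the threshold in no alternative (adjusted p = 0.184 to 0.679).

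The late long minus control call in males was lost with the replicate block on population number (0.92), without C2 (0.47), L2 (0.87) or S1 (1.08), without pools labelled 3 or 4 (1.04), without generation 10 (1.03), 11 (1.01), 12 (1.07) or 13 (1.23), and with 1 pool number left out (0.74 to 1.48). The nonlinear call in males was lost without generation 0 (adjusted p = 0.00663, edgeR), 4 (0.00178), 5 (0.00322), 7 (0.00154), 8 (0.00102), 12 (0.00184) or 13 (0.00135), without L1 (0.0153), L2 (0.00163) or S1 (0.0103), and with 1 pool number left out (0.155 to 0.185). The sex difference at generation 0 turned to -0.32 without pool 1 (0.49 without pool 2) and to -0.075 without S1. The causes were not tested.

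With a replicate block on the pool number the male slope difference was -0.32 (adjusted p = 2.57e-10, edgeR), and with replicate numbers given their own generation slopes it was -0.32 (adjusted p = 1.88e-10); the block changed no call of CG33958 other than late long minus control. Genes called on the male difference numbered 255, and 28 to 419 over the alternatives; on the male added slopes 811, and 72 to 1556; on the female difference 100, and 9 to 256; on the female added slopes 1001, and 46 to 4024; on the nonlinear terms 93, and 0 to 513. The late contrasts called 1008 (194 to 1231), 613 (107 to 832) and 407 (74 to 559) genes. Of the 8 most and least like genes, Spearman correlation kept 2 in females and 5 in males, and centring on each population kept 5 and 4. Depth limits the S1 female levels, which rest on 2 to 27 reads from generation 4.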

Other observations

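Some of the genes most like CG33958 in one sex were not so in the other. GstE10, a glutathione S-transferase gene, had a correlation of 0.75 with CG33958 over the 78 female means and of -0.27 over the 78 male means. In late females its medians were 160 in short, 453 in long and 296 in control libraries, and in late males 478, 346 and 399. CG32409 had 0.76 in females and 0.28 in males, with late female medians of 3010 in short and 4606 in long sleepers and late male medians of 642 and 691. CR45022 was listed at 0 in all late female libraries, while late males had medians of 9.78 in short sleepers (0 to 21.3), 76.6 in long sleepers (37.2 to 124) and 28.2 in controls (3.5 to 74.6).

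CG13562, the gene on both lists, had late male medians of 50.9 in short sleepers (29.4 to 66.7), 111 in long sleepers (83.0 to 133) and 85.8 in controls (69.0 to 128), so its short range lay under both others. In late females the medians were 85.6, 276 and 165, and the short range (24.0 to 188) overlapped the long range (178 to 383). These genes were chosen by their likeness to CG33958 in the same libraries, and no test was made of them.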
